A study of Mus musculus with 12 samples.

Results

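The tripartite motif (TRIM) genes of the mouse were followed through an interferon experiment on cells of the peritoneal cavity. Members were every gene whose name on the array is Trim followed by a number and at most 1 letter, apart from 1 name that was left out. This gave 97 probes for 50 gene names, out of 27962 gene names on the array. Each gene was represented by its probe of highest mean signal. A gene was tested when that probe was well above background, in the scanner software's call, on every array of 1 or more groups, which 39 TRIM genes and 18436 genes in all did. The 11 others were Trim10, Trim15, Trim29, Trim31, Trim42, Trim50, Trim52, Trim60, Trim61, Trim63 and Trim66, whose probes were well above background on 0 to 4 of the 12 arrays.

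Peritoneal exudate cells, a mixed population washed out of the cavity, came from female mice of the strain 129S2/SvPas*BALB/c aged 8 weeks. The mice were labelled wild type (WT) or Ifnar2-/-, which lack a chain of the type I interferon receptor, and were killed 3 h after an intraperitoneal injection of saline (PBS) or of interferon beta (IFN-β, 10000 IU/ml, with no volume given). Each of the 4 groups held 3 samples from different mice, each on its own 1-colour Agilent array. The series title sets the question: whether IFN-β signals through the other receptor chain, IFNAR1, when Ifnar2 is missing. The labels do not say how the Ifnar2 allele was made or whether the genotypes were littermates. All levels below are log2 signals relative to the 75th percentile of the same array, so 0 is that percentile and negative values are below it. They can be compared between arrays for 1 gene but not between genes.

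TRIM proteins are built from a RING domain, which makes most of them ubiquitin ligases, followed by B-box zinc fingers and a coiled coil. The domain at the far end differs between classes and sets what the protein binds: a SPRY (B30.2) domain in the largest class, NHL repeats in a class with neuronal and muscle members, a PHD finger and bromodomain in chromatin regulators, and COS and fibronectin domains in microtubule binders. Type I interferon binds the receptor chains IFNAR1 and IFNAR2, and the transcription factor complex ISGF3 then binds interferon-stimulated response elements (ISREs) in promoters. Several SPRY-class TRIM genes are known interferon-stimulated genes, and their products restrict viruses or act on the cytosolic RNA and DNA sensing pathways.

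The targeted gene went with the labels: Ifnar2 stood between 4.42 and 4.87 on the 6 WT arrays and between 2.69 and 3.20 on the 6 Ifnar2-/- arrays. Ifnar2-/- minus WT after PBS was -1.85 (SE 0.14, adjusted p = 6.76e-05) by limma with Benjamini-Hochberg adjustment over all genes tested. With the mean of all its probes the difference was -0.45 (adjusted p = 0.131). Fitting slide as a fixed block gave -1.80 (adjusted p = 0.0764). The labels do not say where its probes lie relative to the deletion. The 12 arrays lay on 3 slides. Slide 1 held the 3 WT PBS arrays and WT IFN-β 1, slide 2 held WT IFN-β 2 and 3, Ifnar2-/- PBS 1 and Ifnar2-/- IFN-β 1, and slide 3 held the other 4 Ifnar2-/- arrays. On slide 3, 59.4% to 62.5% of spots were well above background, against 65.2% to 71.6% on the other 8 arrays. Markers of peritoneal macrophages, B cells and mast cells were above background on every array.

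In WT mice IFN-β moved TRIM genes both ways. At an adjusted p under 0.05, 8 of the 39 tested genes rose and 13 fell, while 39.4% of all tested genes passed the same test, 17.6% higher and 21.8% lower. The share of TRIM genes that rose (20.5%) was therefore near that of all genes, and the share that fell was 33.3%. Of those that rose, 7 changed at least 2-fold on signals above background, as did 4 of the 13 that fell, 1 of them to below background; the eighth riser, Trim9, was near background. Of all genes 17.9% were called at that size. The median TRIM change was -0.20, beside -0.05 over all genes. The 3 IFN-β values did not overlap the 3 PBS values for 25 of 39, against 53.7% of all genes. Without scaling between arrays the median over all genes was -0.21, and 7 TRIM genes rose and 16 fell, while the share of all called genes that rose went from 44.6% to 30.6%. On slide 1, which held 3 PBS arrays and 1 IFN-β array of WT mice, all 21 called genes differed in the same direction. The WT groups did not overlap for any of the 21, so that direction was fixed in advance and is no separate check. With slide as a fixed block 14 TRIM genes were called, beside 4471 of 18436 genes in all (7273 as analysed).

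The genes that rose most belong to the SPRY class, in which 6 of 19 tested members rose and 7 fell. Of all tested genes 17.6% rose and 21.8% fell. Trim30, whose product dampens the NF-kB signal by degrading TAB2 and TAB3, read 2.27, 2.19 and 2.36 after PBS and 6.24, 5.77 and 6.11 after IFN-β in WT. Its Ifnar2-/- arrays read 1.82, 1.90 and 1.97 after PBS and 1.91, 1.62 and 1.45 after IFN-β. The 3 WT IFN-β arrays thus stood far above all 9 others, which lay between 1.45 and 2.36. The WT change was 3.77 (SE 0.15, adjusted p = 3.95e-08), or 13.6-fold. Trim21, the cytosolic antibody receptor that ubiquitinates antibody-bound virus, was at 0.44, 0.34 and 0.37 after PBS and 3.42, 3.40 and 3.34 after IFN-β in WT. Its Ifnar2-/- arrays gave 0.03, 0.10 and 0.13 after PBS and 0.30, -0.13 and -0.17 after IFN-β. The WT IFN-β arrays again stood above all others, with a change of 3.00 (SE 0.13, adjusted p = 5.79e-08), or 8.02-fold. Trim14, an adaptor at the mitochondrial protein MAVS that lacks a RING domain, went from -1.06, -0.95 and -1.25 after PBS to 1.64, 1.57 and 1.58 after IFN-β in WT. The Ifnar2-/- values were -1.08, -1.11 and -1.08 after PBS and -1.09, -1.20 and -1.41 after IFN-β. No Ifnar2-/- array came near the WT IFN-β arrays, and the WT change of 2.69 (SE 0.12, adjusted p = 6.07e-08) was 6.44-fold.

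Trim34 and Trim12 are relatives of TRIM5, the retroviral restriction factor of primates. Trim34 read -1.51, -1.66 and -1.40 after PBS and 0.53, 0.56 and 0.79 after IFN-β in WT. The Ifnar2-/- arrays read -1.87, -1.92 and -2.06 after PBS and -2.20, -2.28 and -2.99 after IFN-β. The last array of the latter group was the lowest of the 12. The WT change was 2.15 (SE 0.19, adjusted p = 1.24e-05), or 4.45-fold. Trim12 was at -1.55, -1.93 and -1.78 after PBS and 0.11, -0.76 and 0.06 after IFN-β in WT. Its Ifnar2-/- values of -1.86, -1.84 and -2.10 after PBS and -2.07, -1.73 and -2.20 after IFN-β overlapped the WT PBS range. WT IFN-β 2 rose less than the other two, and the WT change was 1.56 (SE 0.23, adjusted p = 0.00038). Trim26, a ligase for nuclear IRF3, was read at 2.93, 2.85 and 3.03 after PBS and 4.28, 4.35 and 4.46 after IFN-β in WT. The Ifnar2-/- values were 3.09, 3.11 and 3.05 after PBS and 2.92, 3.01 and 3.09 after IFN-β. All 3 WT IFN-β arrays were above the 9 others, by 1.42 (SE 0.10, adjusted p = 2.3e-06) over WT PBS, or 2.68-fold.

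Outside the SPRY class only Trim56 and Trim9 rose in WT. Trim56, a ligase that acts in the STING pathway and ends in no named domain, read 2.02, 1.77 and 1.75 after PBS and 3.72, 3.67 and 3.88 after IFN-β in WT. The Ifnar2-/- arrays gave 1.76, 1.88 and 1.68 after PBS and 1.64, 1.83 and 1.55 after IFN-β. The WT IFN-β arrays did not overlap any other group, and the WT change was 1.91 (SE 0.12, adjusted p = 1.23e-06), or 3.75-fold. Trim9, a brain ligase of the COS class, was near background: -6.58, -5.89 and -7.78 after PBS, well above background on 1 of 3 arrays, and -5.76, -5.68 and -5.50 after IFN-β, above it on 3 of 3. Its change was 1.10 (SE 0.39, adjusted p = 0.045), and 0.59 (adjusted p = 0.118) without WT PBS 3, and the call was lost under 17 of 23 other settings.

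**Figure D1:**
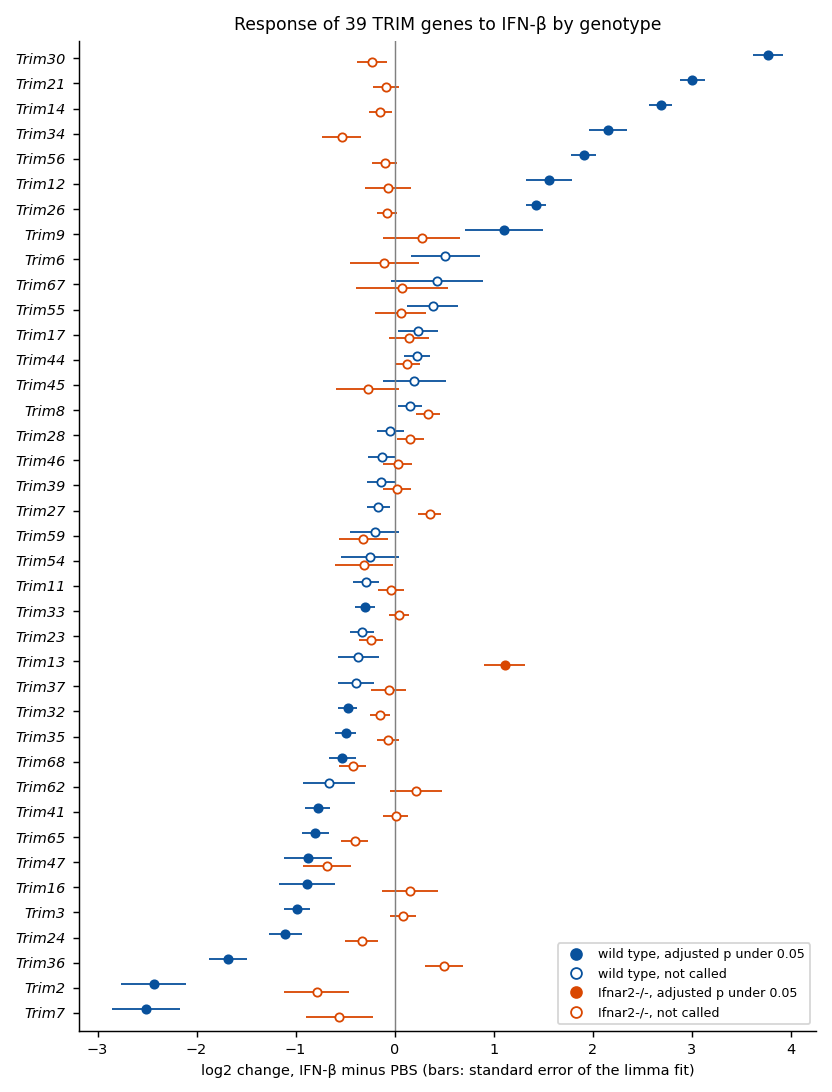
Log2 change after IFN-β (x axis) of each of the 39 tested TRIM genes (y axis) in WT (blue) and Ifnar2-/- mice (orange), with bars for the standard error of the limma fit and filled points for an adjusted p under 0.05. In WT 8 genes lie to the right and 13 to the left as filled points, while Trim13 is the only filled Ifnar2-/- point.

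Among the TRIM genes that fell, the NHL class had 3 tested members, Trim2, Trim3 and Trim32, and all fell in WT, also under both scaling alternatives and the other background correction. Of all tested genes 21.8% fell, and 3 members are few. Trim2, a ligase for the neurofilament light chain, read -1.64, -1.17 and -1.27 after PBS and -4.04, -3.76 and -3.57 after IFN-β in WT. Its Ifnar2-/- arrays read -0.62, -0.63 and -0.58 after PBS and -1.06, -0.81 and -2.33 after IFN-β. WT IFN-β was the lowest group without overlap, and Ifnar2-/- IFN-β 3 was far below its group. The WT change was -2.43 (SE 0.33, adjusted p = 0.000204), a ratio of 0.185, and was -1.49 with normexp background correction. Trim3, a neuronal ligase, went from 0.36, 0.51 and 0.49 after PBS to -0.53, -0.77 and -0.30 after IFN-β in WT, and from 0.32, 0.35 and 0.41 to 0.57, 0.36 and 0.40 in Ifnar2-/- mice. Only the WT groups were apart, with a change of -0.99 (SE 0.13, adjusted p = 0.000167). Trim32, the gene of a limb-girdle muscular dystrophy, changed by -0.48 (SE 0.10, adjusted p = 0.00354), and lost the call when slide was a fixed block (-0.42, adjusted p = 0.0804).

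In the SPRY class, 7 members fell in WT: Trim7, Trim16, Trim47, Trim65, Trim41, Trim68 and Trim35. Trim7, which binds glycogenin, gave -2.71, -2.84 and -2.29 after PBS and -5.01, -5.12 and -5.24 after IFN-β in WT. The Ifnar2-/- arrays gave -2.84, -2.51 and -3.44 after PBS and -3.10, -3.03 and -4.33 after IFN-β. WT IFN-β lay below all 9 other arrays, and Ifnar2-/- IFN-β 3 was the lowest of those 9. The WT change was -2.51 (SE 0.34, adjusted p = 0.000217), a ratio of 0.175, and was -0.84 with normexp background correction, which adds a constant of 50 to each signal. The other 6 fell by less than 2-fold. Trim65, a ligase for the RNA sensor MDA5, changed by -0.80 (SE 0.14, adjusted p = 0.000962). Trim41, which binds protein kinase C, read 2.30, 2.14 and 2.05 after PBS and 1.42, 1.24 and 1.49 after IFN-β in WT, with Ifnar2-/- values of 2.14, 1.90 and 2.10 and 2.19, 1.98 and 2.00. Its WT change was -0.78 (SE 0.12, adjusted p = 0.000594). Trim16, an autophagy factor, changed by -0.88 (SE 0.28, adjusted p = 0.0299) and lost the call on leaving out any of the 6 WT arrays, with adjusted p up to 0.0879. Trim47 changed by -0.87 (SE 0.24, adjusted p = 0.0162) and lost the call without WT PBS 2 (adjusted p = 0.0607) or WT IFN-β 2 (adjusted p = 0.0628). Trim68 changed by -0.53 (SE 0.14, adjusted p = 0.0114) and Trim35 by -0.49 (SE 0.11, adjusted p = 0.00435). With slide as a fixed block, Trim16, Trim47, Trim68 and Trim35 had adjusted p of 0.0631 to 0.177.

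Of the chromatin regulators with a PHD finger and bromodomain, Trim24 and Trim33 fell and Trim28 did not pass the test. Trim24, a nuclear receptor co-regulator, read 1.69, 1.65 and 1.59 after PBS and 0.55, 0.52 and 0.56 after IFN-β in WT. It read 1.72, 1.56 and 1.28 after PBS and 1.33, 1.43 and 0.81 after IFN-β in Ifnar2-/- mice. The 3 WT IFN-β values were tight and below every other array, of which Ifnar2-/- IFN-β 3 was the lowest. The WT change was -1.11 (SE 0.17, adjusted p = 0.000461), and -0.58 (adjusted p = 0.317) with the mean of its 3 probes. Trim33, which acts on SMAD4 in TGF-β signalling, changed by -0.30 (SE 0.10, adjusted p = 0.0398) and lost the call under 16 of 24 settings. Trim28, the co-repressor of KRAB zinc finger proteins, was at -0.04 (adjusted p = 0.847). In the COS class Trim36, a microtubule-binding ligase, was at -5.09, -4.95 and -5.15 after PBS and -6.80, -6.76 and -6.68 after IFN-β in WT. Its Ifnar2-/- values were -4.52, -4.95 and -5.37 after PBS and -4.64, -4.29 and -4.42 after IFN-β. None of the 3 WT IFN-β arrays was well above background, so Trim36 was at least 2.09-fold lower there, a bound taken against the lowest signal called above background on those arrays. The fitted change was -1.69 (SE 0.19, adjusted p = 6.25e-05), and with normexp it was -0.11 (adjusted p = 0.507).

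**Figure D2:**
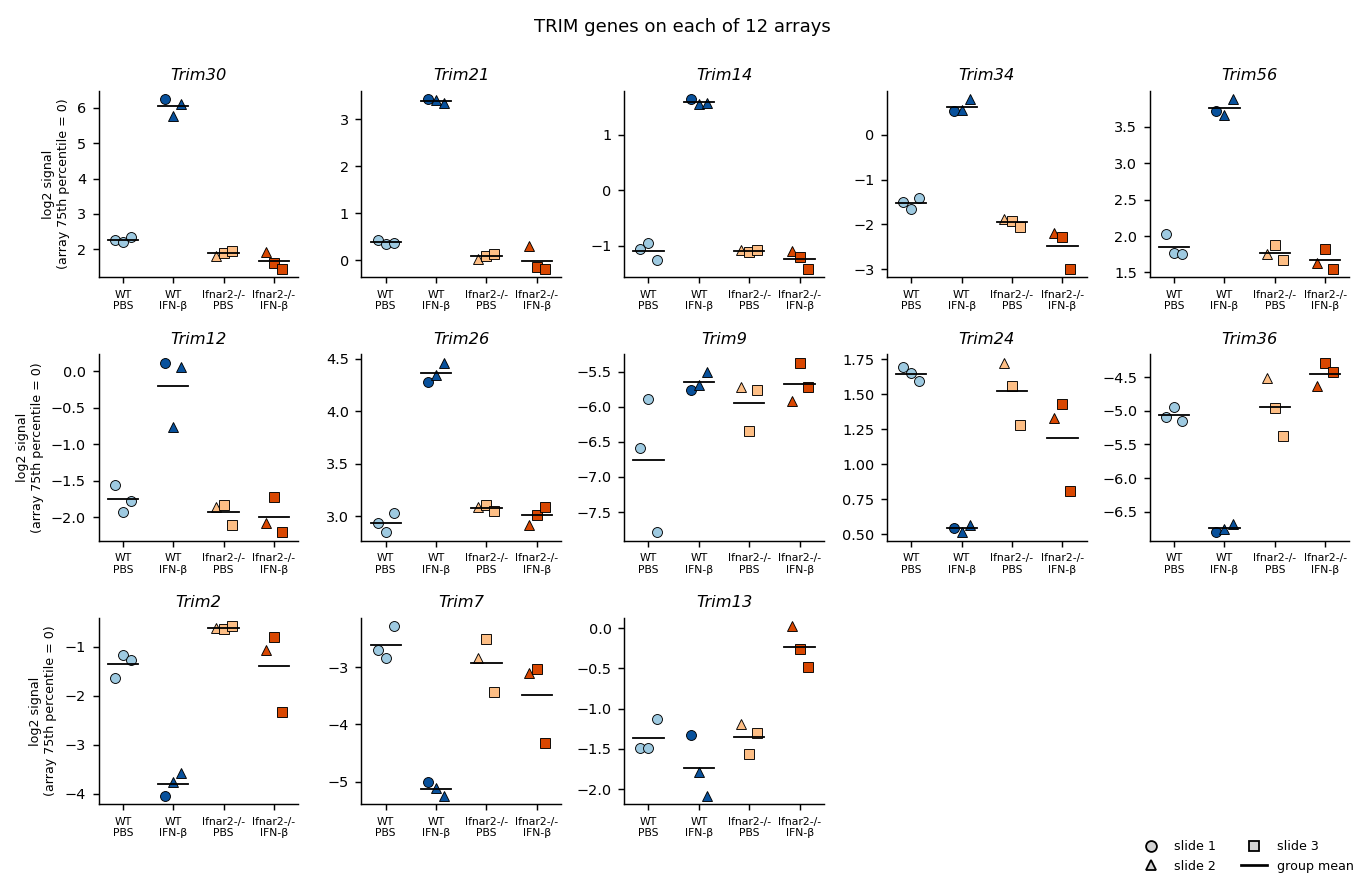
Log2 signal relative to each array's 75th percentile (y axis) for the 12 TRIM genes called at least 2-fold changed in WT and for Trim13, by group (x axis), with 1 point per array, its shape giving the slide, and a bar at the group mean. The 3 WT IFN-β points sit apart from the 9 others for Trim30, Trim21, Trim14, Trim34, Trim56, Trim12, Trim26, Trim24, Trim36, Trim2 and Trim7, while for Trim13 the Ifnar2-/- IFN-β points are the high ones.

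The 18 remaining tested genes did not pass the test in WT, and their changes ran from -0.66 (Trim62) to 0.51 (Trim6). Trim23, the ARF-domain member, had -0.33 (SE 0.12, adjusted p = 0.0565) with no overlap between WT groups. Trim8, which binds the cytokine signal inhibitor SOCS1, was at 0.16 (SE 0.12, adjusted p = 0.35). The muscle RING-finger genes Trim54 and Trim55 gave -0.25 (adjusted p = 0.552) and 0.38 (adjusted p = 0.277). Trim37 and Trim45, the MATH and filamin members, gave -0.39 and 0.20, and the membrane-anchored Trim13 and Trim59 -0.37 and -0.20. Trim11, Trim17, Trim27, Trim39, Trim44, Trim46 and Trim67 lay between -0.29 and 0.43. Without WT IFN-β 3 Trim62 was called (-0.96, adjusted p = 0.00714), as was Trim11 without WT PBS 2 (-0.40, adjusted p = 0.0422) and Trim23 without WT IFN-β 2 (-0.40, adjusted p = 0.0418). A p above the threshold does not show that these genes held their level.

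Marker sums of some cell types moved in WT mice after IFN-β. The counts of called markers stand beside 17.6% of all tested genes that rose and 21.8% that fell in WT. The 4 monocyte markers measured, as a sum of linear signals relative to the 75th percentile, ran from 107 to 161 on the WT PBS arrays and from 328 to 392 on the WT IFN-β arrays, and 3 of the 4 (Chil3, Ly6c1 and Plac8) rose. Of the 8 T and NK cell markers, 5 fell, with sums between 15.1 and 27.0 on the WT PBS arrays and between 9.64 and 13.9 on the WT IFN-β arrays. All 12 of these markers were above background on every array, so none was at 0. The monocyte sums of Ifnar2-/- mice ran from 97.4 to 116 with PBS and from 87.3 to 130 with IFN-β. Of the 6 mesothelial and stromal markers, 3 fell in WT, with sums of 1.16 to 1.46 on PBS arrays and 0.81 to 0.94 on IFN-β arrays, beside 1.14 to 1.47 and 0.80 to 1.00 in Ifnar2-/- mice. Of the 6 mast cell markers, 3 fell in WT, and their sum went from 188 to 265 on PBS arrays to 164 to 188 on IFN-β arrays. The mast cell sums of the WT groups overlapped by a little, and those of the cell types not yet named overlapped as well. Large peritoneal macrophage markers gave 325 to 483 on PBS arrays and 399 to 453 on IFN-β arrays. B cell markers gave 185 to 273 and 188 to 232. The part of these cell types in the TRIM changes was not tested. In these mixed cells, fewer cells of a type and less RNA per cell cannot be told apart.

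By the probe coordinates of the array (build mm7), 9 of the 50 TRIM genes lie on chromosome 7, and of the 8 tested there 4 rose and 2 fell. The probes of the 4 that rose are at chr7:98608416-98608475 on the minus strand for Trim21, chr7:100306007-100391705 on the plus strand for Trim34, chr7:100360703-100360762 on the minus strand for Trim12 and chr7:100468045-100468622 on the minus strand for Trim30. Between and beside them lie Trim68 (chr7:98727598-98727657 on the minus strand) and Trim3 (chr7:101667129-101667188 on the minus strand), which fell, and Trim6 (chr7:100284537-100284596 on the plus strand), which was not called. On chromosome 11, 5 of 8 tested TRIM genes fell and 0 rose. Over all tested genes 17.6% rose and 21.8% fell in WT. The shares of all genes on each chromosome were not computed, so these counts describe positions only. Which exon or untranslated region each probe lies in was not analysed here.

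The risers were set against the promoter letters that ISGF3 is known to bind. RefSeq promoters of 300 bases (250 before to 50 after each start, build GRCm38.p6) were found for 37 of the 50 genes, under the current symbols Trim12a, Trim30a and Trim34a for Trim12, Trim30 and Trim34. The ISRE core GAAANNGAAA was searched on both strands. It was present in 6 of the 37 TRIM genes (16.2%) and in 3.99% of 27024 genes with a promoter. The sequences show each match with its flanks, 5′ to 3′ on the gene's strand, with the core in capitals, printed as its reverse complement where it lies on the other strand. Trim30d and Trim12c are neighbours of Trim30a and Trim12a that the array carries under older names. No core match was found for the other measured genes under other or older names: Trim30b, Trim69, Pml, Mefv, Mid1, Mid2 and Cmya5. Whether each of these has a promoter entry is not given here.
Trim30a: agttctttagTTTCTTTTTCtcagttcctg
Trim30a, other start: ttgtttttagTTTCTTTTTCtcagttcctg
Trim30d: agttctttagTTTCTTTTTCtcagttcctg
Trim34a: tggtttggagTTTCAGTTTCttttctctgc
Trim12a: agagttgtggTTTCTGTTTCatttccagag
Trim12c: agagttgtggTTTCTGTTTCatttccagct
Trim21: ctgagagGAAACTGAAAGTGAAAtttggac
Trim26: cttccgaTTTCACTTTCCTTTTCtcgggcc
Trim2: tcagctttggTTTCCTTTTCtctaagacag

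The windows lie on build GRCm38.p6 at chr7:104465210-104465239 (minus strand) and chr7:104446104-104446133 (minus strand) for the 2 starts of Trim30a, chr7:104507871-104507900 (minus strand) for Trim30d, chr7:104244457-104244486 (plus strand) for Trim34a and chr7:104315466-104315495 (minus strand) for Trim12a. Those of Trim12c, Trim21, Trim26 and Trim2 are at chr7:104353359-104353388 (minus strand), chr7:102565447-102565476 (minus strand), chr17:36836979-36837008 (plus strand) and chr3:84212791-84212820 (minus strand). The first Trim30a window and that of Trim30d hold the same letters. In Trim21 and in Trim26, 2 overlapping cores are merged in the capitals. Counted from the start site, the core spans bases -36 to -27 in Trim30a, bases 11 to 20 in Trim34a, bases 11 to 20 in Trim12a, bases 14 to 29 in Trim21 and bases -160 to -145 in Trim26. The Trim2 match is in 1 of the gene's 5 promoters.

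Read by response, the core was in 5 of the 7 TRIM genes with a promoter that rose in WT (71.4%), namely Trim12, Trim21, Trim26, Trim30 and Trim34, and in 1 of the 7 that fell (Trim2). It was in 0 of 14 not called and 0 of 9 not tested. Over all genes the core was in 7.58% of 2070 that rose, 2.26% of 2741 that fell and 3.12% of 6433 not called, and in 10.9% of those that rose at least 2-fold. The longer motif GAAANNGAAACT, the core with CT after it, also searched on both strands, matched in 2 TRIM genes (Trim30a and Trim34a) and in 0.303% of all genes. The gamma-activated site TTCNNNGAA, searched on both strands, was in 0 of the 7 TRIM genes that rose, 4 of 37 TRIM genes (10.8%) and 9.55% of all genes. A match is a run of letters in this window and not a measured binding site, and Trim12, Trim30 and Trim34 are related neighbours, so their windows are not independent.

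Of the 39 tested TRIM genes, 23 had several measured probes. In WT all probes of a gene were called the same way for 8, none was called for 8, some were called for 7, and 0 genes had probes called in opposite directions. The second probe of Trim30 changed by 3.75, and those of Trim34 by 2.89 and 2.37. For Trim2 and Trim7 the second probes changed by -2.89 and -1.40. Probes disagreed for Trim6 (0.51 not called, 1.20 called higher), Trim44 (0.22 not called, 0.73 called higher) and Trim45 (0.20 not called, -0.89 called lower). For Trim24 its dimmest measured probe gave 0.18. Trim12, Trim30 and Trim34 have close copies in the genome, and whether their probes also bind those transcripts was not tested.

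**Figure D3:**
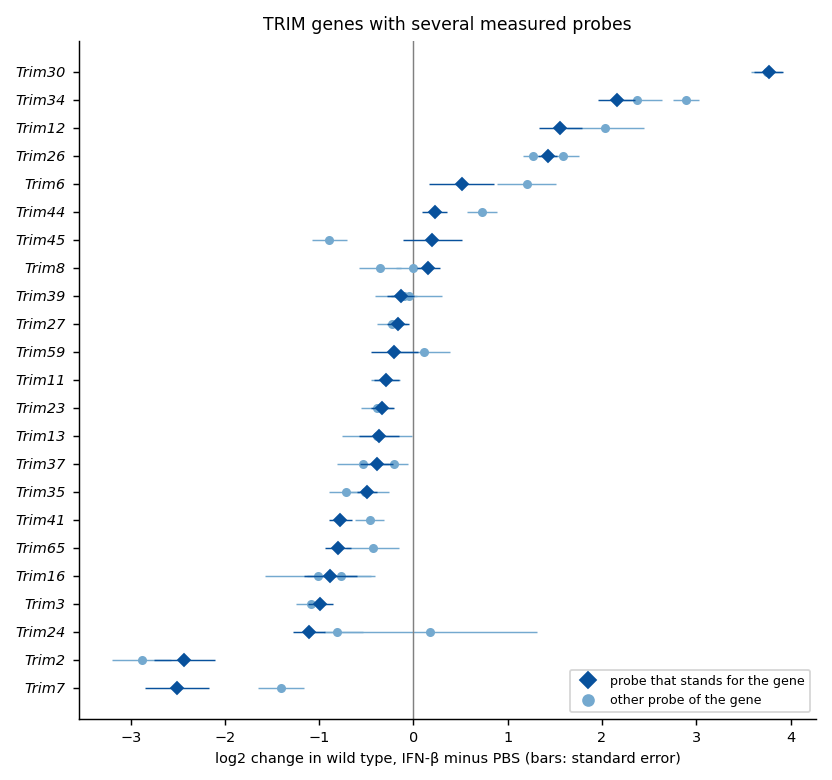
Log2 change in WT, IFN-β minus PBS (x axis), of every measured probe of the 23 TRIM genes with several (y axis), with bars for the standard error, dark diamonds for the probe that stands for the gene and light circles for its other probes. Probes of Trim30, Trim34, Trim12, Trim26, Trim2, Trim7 and Trim3 lie on the same side of 0. Those of Trim45, Trim24, Trim8 and Trim59 lie on both sides.

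In Ifnar2-/- mice 1 of the 39 TRIM genes passed the test, against 1.13% of all genes (0.922% higher, and 0.721% called at least 2-fold), and 9 had an unadjusted p under 0.05. The IFN-β and PBS values did not overlap for 9 of 39, against 23.4% of all genes, and the median change was -0.07 beside -0.05 over all genes. The gene called was Trim13, a ligase anchored in the endoplasmic reticulum that takes part in protein quality control there. It read -1.49, -1.48 and -1.13 after PBS and -1.33, -1.79 and -2.08 after IFN-β in WT. With Ifnar2 missing it went from -1.19, -1.56 and -1.30 after PBS to 0.02, -0.25 and -0.48 after IFN-β, so those 3 IFN-β arrays were above all 9 others. The change was 1.11 (SE 0.21, adjusted p = 0.0373), or 2.16-fold, and a second, dimmer probe gave 1.32 without passing the test. Within slide 2 (1 array each) the difference was 1.22 and within slide 3 (2 arrays each) 1.06. The call was lost under 13 of 24 settings while the value stayed between 0.98 and 1.23: with the replicate number as a block its adjusted p was 0.0507, with the mean of its probes 0.0566, and without any of 8 single arrays, among them all 3 Ifnar2-/- PBS arrays, 0.0608 to 0.16. Over all genes 209 were called as analysed, 139 with the replicate block and 188 with the mean of a gene's probes. With an Ifnar2-/- PBS array left out, 32 to 73 of all genes were called, and without Ifnar2-/- IFN-β 1, 288. The neutrophil marker sum was 10.2 to 15.4 in the Ifnar2-/- PBS arrays and 19.2, 78.1 and 196 in the Ifnar2-/- IFN-β arrays. It was 106, 14.2 and 9.22 on the WT PBS arrays and 15.3 to 22.1 on the WT IFN-β arrays. Its part in the Trim13 values was not tested.

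Of the 8 genes that rose in WT, 0 passed the test in Ifnar2-/- mice, where Trim30 was at -0.23 (SE 0.15), Trim21 at -0.09 (SE 0.13), Trim14 at -0.14 (SE 0.12), Trim56 at -0.10 (SE 0.12) and Trim26 at -0.07 (SE 0.10). Trim34 gave -0.54 (SE 0.19, adjusted p = 0.188), with no overlap between its Ifnar2-/- groups. The largest negative Ifnar2-/- values were -0.79 for Trim2 (adjusted p = 0.24) and -0.69 for Trim47 (adjusted p = 0.187). The array Ifnar2-/- IFN-β 3, lowest of its group for Trim2, Trim7, Trim24 and Trim34, also had the highest neutrophil marker sum, 196, and that link was not tested.

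The difference between the responses, the Ifnar2-/- change minus the WT change, was tested in the same limma fit and passed for 14 of 39 TRIM genes, 7 lower and 7 higher, against 17.8% of all genes (9.1% lower and 8.68% higher). With slide as a fixed block 10 TRIM genes passed, beside 1944 of all genes (3278 as analysed). Of the 21 genes called in WT, 13 were among these. The 7 lower differences were those of the WT risers other than Trim9. Trim30 differed by -4.00 (SE 0.21, adjusted p = 9.51e-07), Trim21 by -3.09 (SE 0.18, adjusted p = 1.8e-06) and Trim14 by -2.83 (SE 0.16, adjusted p = 1.64e-06). For Trim34 the difference was -2.69 (SE 0.27, adjusted p = 8.25e-05), for Trim56 -2.01 (SE 0.18, adjusted p = 2.93e-05), for Trim12 -1.63 (SE 0.32, adjusted p = 0.00598) and for Trim26 -1.50 (SE 0.14, adjusted p = 5.42e-05). For these 7 the responses of the genotypes differed by more than the spread between arrays. Among the genes that fell in WT, the difference passed for 6. It was 2.19 (SE 0.27, adjusted p = 0.000311) for Trim36, 1.95 (SE 0.48, adjusted p = 0.0181) for Trim7 and 1.64 (SE 0.46, adjusted p = 0.0325) for Trim2. Trim3 had 1.07 (SE 0.18, adjusted p = 0.00246), Trim41 0.79 (SE 0.17, adjusted p = 0.0105) and Trim24 0.77 (SE 0.24, adjusted p = 0.0472). Trim13 had 1.48 (SE 0.29, adjusted p = 0.00597), made up of the Ifnar2-/- change and a WT change of -0.37 that did not pass.

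Each of the 7 higher differences lost its call under at least 1 setting, and so did 1 of the 7 lower ones. Trim24 turned to -0.079 (adjusted p = 0.955) with the mean of its probes and lost the call under 15 of 23 settings, among them the loss of any single array but Ifnar2-/- PBS 1 and Ifnar2-/- IFN-β 3. Trim2 lost it under 12 of 23, with adjusted p up to 0.151, and with 9 of the 12 single arrays left out, the exceptions being WT PBS 1, WT IFN-β 3 and Ifnar2-/- IFN-β 3. Trim36 (0.21, adjusted p = 0.457) and Trim7 (0.53, adjusted p = 0.272) lost it with normexp, and Trim7 also with slide as a fixed block (adjusted p = 0.102). Leaving out the 4 arrays of slide 3, a choice made after the data were seen, leaves 1 array in each Ifnar2-/- group, assumed to vary like the WT arrays, so a call lost there does not show a smaller difference. There 9 differences passed, 3 higher and 6 lower, while Trim13 was at 1.58 (adjusted p = 0.0818), Trim3 at 1.23 (adjusted p = 0.0571), Trim41 at 0.83 (adjusted p = 0.112) and Trim12 at -1.78 (adjusted p = 0.0929). Of the 7 lower differences, that of Trim12 is the 1 that any setting run did not call. Other genes gained a difference without 1 array: Trim16 without Ifnar2-/- IFN-β 2 (1.30) or 3 (0.62), Trim35 without Ifnar2-/- IFN-β 3 (0.48) and Trim62 without WT IFN-β 3 (1.17).

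After PBS alone, Ifnar2-/- and WT mice gave 0 called TRIM genes of 39 by limma, against 4.87% of all genes (2.82% higher and 2.04% lower, and 3.16% called at least 2-fold), and 6 at an unadjusted p under 0.05 (3726 of all 18436). The mast cell marker sum stood apart between these groups, at 188 to 265 in WT and 280 to 336 in Ifnar2-/- mice with 2 of 6 markers higher, and its part was not tested. The largest values were those of Trim6 and Trim45. Trim6, which makes unanchored ubiquitin chains that activate IKK epsilon, read -4.15, -4.20 and -3.61 and -3.37, -3.57 and -3.49 in WT after PBS and IFN-β. Its Ifnar2-/- values were -3.59, -2.36 and -2.32 after PBS and -3.41, -2.77 and -2.42 after IFN-β. Trim45, a regulator of MAP kinase signalling, read -1.97, -2.27 and -2.36 and -1.94, -2.18 and -1.88 in WT after PBS and IFN-β. The Ifnar2-/- arrays read -1.80, -0.78 and -0.74 after PBS and -2.00, -1.17 and -0.97 after IFN-β. For both genes the 4 arrays of slide 3 were the high ones, and the 2 Ifnar2-/- arrays of slide 2 lay within or near the WT range. Ifnar2-/- minus WT after PBS was 1.23 (SE 0.35, adjusted p = 0.0791) for Trim6 and 1.10 (SE 0.32, adjusted p = 0.0852) for Trim45. The second measured probe of each gene did not show this, with -0.03 for Trim6 and -0.18 for Trim45. Without Ifnar2-/- PBS 1, the slide 2 array, both were called, at 1.64 (adjusted p = 0.0107) and 1.44 (adjusted p = 0.0178). With the replicate number as a block, Trim6 was called (adjusted p = 0.0393). Trim45 was also called without Ifnar2-/- IFN-β 1, and Trim2 without Ifnar2-/- IFN-β 3 (0.75, adjusted p = 0.0213, beside 0.232 on all arrays).

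The same pattern, all 4 slide 3 arrays above all 8 others, held for Trim6, Trim45, Trim54 and Trim67, 4 of 39 TRIM genes (10.3%), and for 6.72% of all genes; the reverse held for 0 TRIM genes and 1.81% of all genes. Slide 3 holds Ifnar2-/- arrays alone, so no WT array shares a slide with Ifnar2-/- PBS 2 or 3. By the pattern itself, the Ifnar2-/- arrays of slide 2 lay below all 4 arrays of slide 3 for these 4 genes, as the WT arrays did. The part of the slide in these values was not tested. Among the WT risers, Trim30 was at -0.38 (adjusted p = 0.195), Trim21 at -0.29 (adjusted p = 0.231) and Trim34 at -0.43 (adjusted p = 0.246) in Ifnar2-/- mice after PBS, without overlap between the groups but short of the threshold. Groups did not overlap for 9 of 39 TRIM genes, against 29.1% of all genes.

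**Figure D4:**
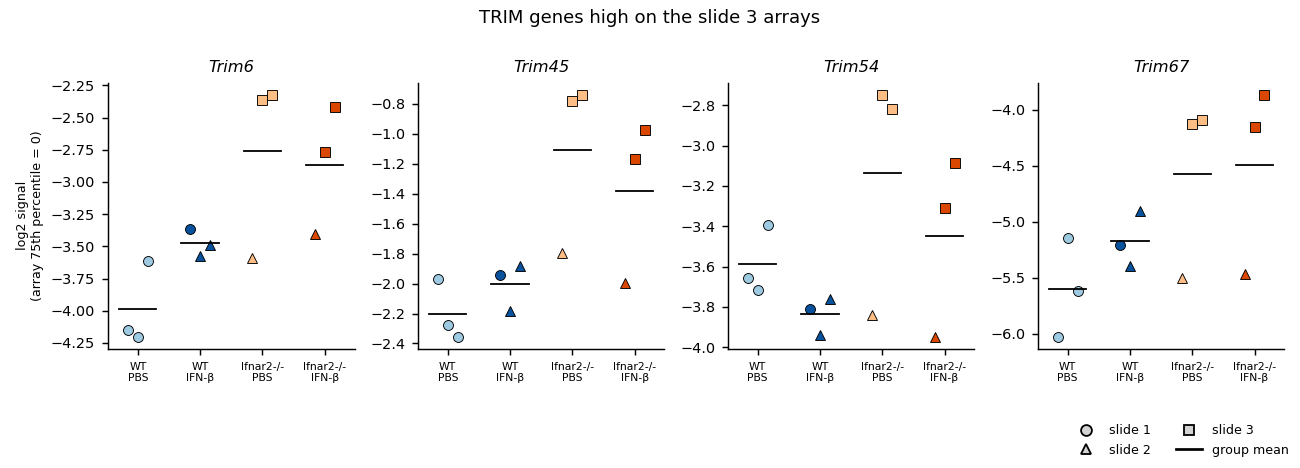
Log2 signal relative to each array's 75th percentile (y axis) of Trim6, Trim45, Trim54 and Trim67 by group (x axis), with 1 point per array, its shape giving the slide, and a bar at the group mean. The 4 squares of slide 3 lie above the 8 circles and triangles in each panel.

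TRIM proteins whose genes carry other names were measured as a separate list of 5, of which 2 rose and 1 fell in WT. The shares of all tested genes were 17.6% and 21.8%. Pml (TRIM19), the organiser of PML nuclear bodies, read 2.44, 1.97 and 2.52 after PBS and 4.50, 4.40 and 4.61 after IFN-β in WT. Its Ifnar2-/- values were 1.78, 2.05 and 1.89 after PBS and 1.74, 1.79 and 2.00 after IFN-β. WT IFN-β again stood above all other arrays, with 2.19 (SE 0.16, adjusted p = 2.48e-06) in WT and a difference of -2.26 (SE 0.22, adjusted p = 6.72e-05). Mefv, which encodes the inflammasome protein pyrin (TRIM20), read -0.39, -1.58 and -1.37 after PBS and 1.38, 0.33 and 0.64 after IFN-β in WT. On the Ifnar2-/- arrays it read -0.95, -1.30 and -1.67 after PBS and -0.07, 0.49 and 1.81 after IFN-β. Here the IFN-β arrays were the high ones in both genotypes, with WT 1.90 (SE 0.48, adjusted p = 0.00985), Ifnar2-/- 2.05 (SE 0.48, adjusted p = 0.0749) and a difference of 0.15 (SE 0.68, adjusted p = 0.927). These values were loose: the Ifnar2-/- change ran from 0.87 to 2.46 over the alternatives, and was called with normexp (1.91, adjusted p = 0.0431) and without Ifnar2-/- IFN-β 1 (2.46, adjusted p = 0.0428), while the difference ran from -1.03 to 0.56. The Ifnar2-/- order of the 3 IFN-β arrays was that of the neutrophil marker sum (19.2, 78.1 and 196), and that link was not tested. Mid2 (TRIM1), a microtubule binder of the COS class, read -3.09, -3.25 and -3.39 after PBS and -5.26, -5.42 and -4.87 after IFN-β in WT. Its Ifnar2-/- arrays read -1.55, -1.56 and -1.58 after PBS and -1.49, -1.67 and -2.27 after IFN-β. It fell in WT, with a change of -1.94 (SE 0.20, adjusted p = 3.87e-05). The Ifnar2-/- PBS arrays stood above WT PBS by 1.68 (SE 0.20, adjusted p = 0.00101), which with slide as a fixed block was 1.19 (adjusted p = 0.23). The mast cell marker sum was higher in the same arrays, and its part was not tested. The Mid2 difference between responses was 1.70 (SE 0.29, adjusted p = 0.00244), and 0.51 (adjusted p = 0.137) with normexp. Mid1 (TRIM18), the close relative of Mid2, read -0.33, -0.24 and -0.45 after PBS and -0.11, 0.01 and 0.14 after IFN-β in WT, and -0.08, 0.25 and 0.39 and -0.45, 0.13 and 0.22 in Ifnar2-/- mice, and did not pass in WT (0.36, adjusted p = 0.164). With the mean of its probes Mid1 was called higher in WT (adjusted p = 0.00251), and its change ran from 0.19 to 1.48 over the alternatives. Cmya5 (TRIM76), a muscle protein, read -4.57, -4.38 and -5.13 and -3.92, -4.29 and -3.31 in WT and -3.44, -3.70 and -3.63 and -4.04, -3.64 and -5.33 in Ifnar2-/- mice after PBS and IFN-β, and did not pass either (0.85, adjusted p = 0.121).

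The SPRY list also holds 4 tested TRIM genes that the array carries under older names, and these 4 rose in WT, beside 17.6% of all genes. Trim30d (AI451617) read 1.09, 1.16 and 1.28 after PBS and 5.23, 4.73 and 5.11 after IFN-β in WT. Its values in Ifnar2-/- mice were 0.68, 0.65 and 0.74 after PBS and 0.75, 0.73 and 0.52 after IFN-β. WT IFN-β was above all other arrays by a wide margin, with 3.84 (SE 0.14, adjusted p = 2.08e-08) in WT, or 14.4-fold, and a difference of -3.87 (SE 0.19, adjusted p = 6.83e-07). Its promoter window is the one that matches Trim30a. Trim12c (9230105E10Rik) read -0.11, -0.47 and -0.34 after PBS and 1.26, 0.80 and 0.57 after IFN-β, with 1.18 (SE 0.20, adjusted p = 0.000988) in WT. Trim30b (A530023O14Rik) and Trim69 (Rnf36) were dim after PBS, each well above background on 1 of 3 WT PBS arrays and on all 3 WT IFN-β arrays, so the size of their rise is loosely set. The fitted change was 3.15 (SE 0.38, adjusted p = 0.000106) for Trim30b and 2.67 (SE 0.42, adjusted p = 0.000544) for Trim69, and with normexp these were 1.04 and 0.93.

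**Figure D5:**
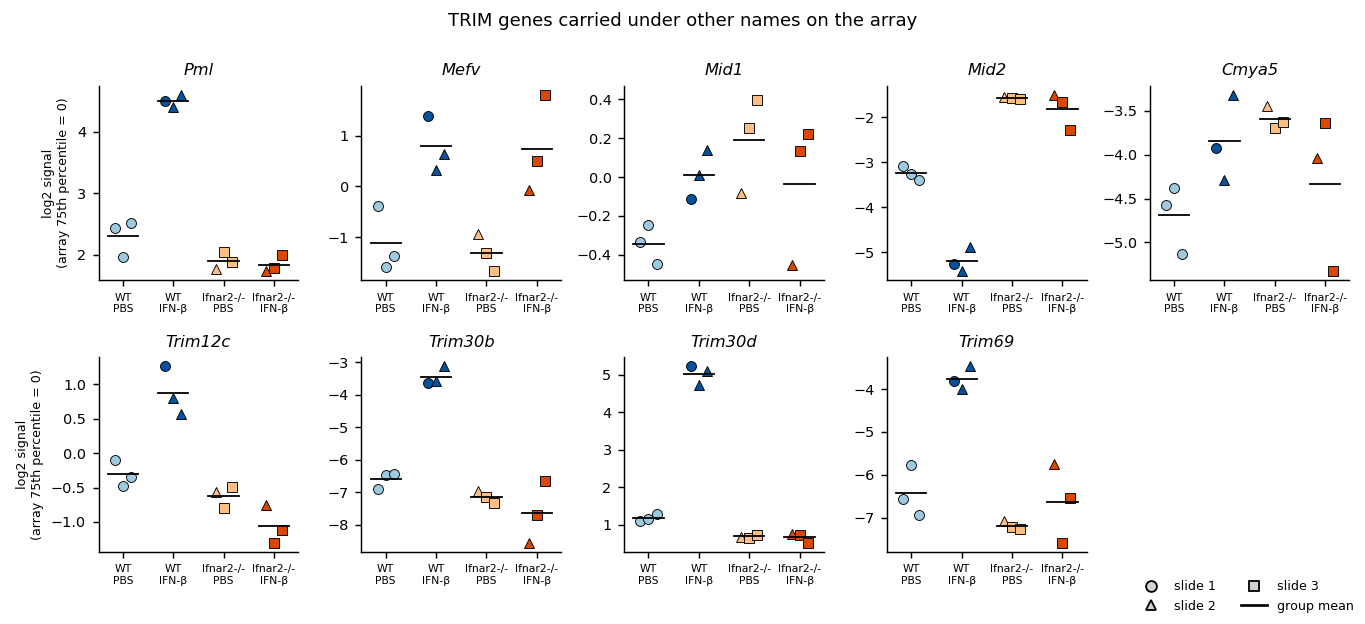
Log2 signal relative to each array's 75th percentile (y axis) of 9 TRIM genes that the array carries under other or older names, by group (x axis), with 1 point per array, its shape giving the slide, and a bar at the group mean. WT IFN-β points lie above all others for Pml, Trim30d, Trim30b, Trim69 and Trim12c, and Mefv is high after IFN-β in both genotypes.

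The genes TRIM proteins work with moved as follows. Of 12 genes of the receptor and ISGF3 pathway, 6 rose and 0 fell in WT, with a list median of 0.56. They include the signal inhibitors Usp18 (8.12, adjusted p = 2.43e-07) and Socs1 (5.40, adjusted p = 3.53e-06), and the ISGF3 subunit Stat2 (3.58, adjusted p = 3.3e-08). With quantile normalization 3 members also fell. Without Ifnar2, 0 passed by limma and 2 had an unadjusted p under 0.05, and 5 differences were lower. After PBS 3 were lower in Ifnar2-/- mice, Usp18 (-3.93), the targeted Ifnar2 itself and Irf9 (-0.97), and all 3 lost the call with slide as a fixed block (adjusted p = 0.222, 0.0764 and 0.477).

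Of 19 ubiquitin-conjugating enzymes, which hand ubiquitin to RING ligases, 7 rose and 1 fell in WT. The members that moved most were Ube2l6, the conjugating enzyme for ISG15 (4.37, adjusted p = 6.94e-08), Ube2h (-1.66, adjusted p = 1.65e-05) and Ube2e1 (1.25, adjusted p = 1.38e-05). The count that rose was 2 without scaling and 3 with quantile normalization. Without Ifnar2, 0 passed by limma and 7 had an unadjusted p under 0.05. Of 22 sensing and signalling genes that TRIM proteins act on, 12 rose and 4 fell in WT, with a median of 0.43. Irf7 (6.47, adjusted p = 1.47e-08), Ifih1, which encodes MDA5 (5.18, adjusted p = 3.78e-07), and Ddx58, which encodes RIG-I (3.50, adjusted p = 1.18e-06), rose most, followed by Azi2, an adaptor of the kinase TBK1 (2.06, adjusted p = 2.11e-07). In Ifnar2-/- mice 1 of the 22 rose: Ikbke, which encodes the kinase IKK epsilon, by 1.72 (SE 0.16, adjusted p = 0.001), beside 1.91 (SE 0.16, adjusted p = 7.95e-06) in WT and a difference of -0.19 (SE 0.23, adjusted p = 0.654). The Ifnar2-/- call of Ikbke was lost with only the groups of the comparison and without slide 3, with adjusted p up to 0.0843 and values from 1.55 to 2.04. These lists include genes chosen with earlier results of the same arrays known, so their counts are descriptions beside the 39.4% of all genes called in WT.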

How the data were processed

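Peritoneal exudate cell RNA of 12 mice (4 groups of 3) was labelled with Cy3 and hybridised to Agilent arrays of 1 colour, as the labels give it. The deposited files hold scanner output from Agilent Feature Extraction 9.5.3.1, per the file headers. The intensity used is the authors' processed signal, which that software had already background-subtracted. The deposited series value table holds the same intensity, with 0 entries that differ from the scanner files. Probe coordinates are those of build mm7, per the file headers.

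From each array, control spots and outlier spots were left out, log2 of the signal minus the array's 75th percentile was taken, spots of a probe were averaged, and probes not well above background on all arrays of any group, or with values on fewer than 6 arrays, were dropped. The probe of highest mean stood for each gene. Genes were tested under the name in the files. Current names, used for the lists and promoters, were found in RefSeq by accession for 22951 probes, by symbol for 6659 and by older symbol for 3109. The other 8455 probes kept the name in the files. TRIM members were chosen on the name in the files, and 3 of 50 carry another current symbol. limma 3.58.1 in R 4.3.3 was fitted to 4 group means over all 12 arrays, with 8 residual and 2.39 prior degrees of freedom, and Benjamini-Hochberg adjustment ran over the 18436 genes tested, with calls at an adjusted p under 0.05. The fit was tested on simulated data. A saturated TRIM spot was found on 0 arrays. A probe that was well above background on 0 arrays of a group was given as a bound, and where only some arrays measured it their number is given. Precision is limited by 3 arrays a group.

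Values on each array are given for TRIM genes called at least 2-fold in WT or called in another comparison and for TRIM genes under other names; from the other lists up to 4 called genes of largest change are named. Trim6, Trim45, Trim12c and Trim69 fall outside that rule and were named after their values were seen, Trim12c and Trim69 to complete the list's 4 genes under older names. The TRIM members, lists and tests were chosen with earlier results of these data known. By the correlation of same-numbered deviations, PBS and IFN-β arrays of the Ifnar2-/- mice passed the limit of 0.1 set for pairing (0.51, 0.19 and 0.10) and those of WT mice did not (0.03, -0.12 and -0.12). Within the Ifnar2-/- mice only replicate 1, both arrays on slide 2, matched its own number best, while replicates 2 and 3, on slide 3, matched each other's, so number and slide cannot be told apart; the fit with the replicate number as a block is given where it changed a call. Alternatives were normexp, quantile or no scaling, no filter or a stricter one, the mean of a gene's probes, slide as a fixed or random block, the replicate block, fits on fewer groups, and leaving out each array. Another took the current RefSeq names as genes. Promoter letters are RefSeq's, build GRCm38.p6.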

Additional observations from a re-analysis of the deposited data

Results flagged for a closer look

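For 14 of 39 TRIM genes the response to IFN-β differed between Ifnar2-/- and WT mice by the test of the difference itself, against 17.8% of all genes. The Ifnar2-/- change minus the WT change was -4.00 for Trim30, -3.09 for Trim21, -2.83 for Trim14, -2.69 for Trim34, -2.01 for Trim56, -1.63 for Trim12 and -1.50 for Trim26. These 7 rose in WT, and their Ifnar2-/- changes lay between -0.54 (Trim34) and -0.07 (Trim12 and Trim26). The difference was 2.19 for Trim36, 1.95 for Trim7, 1.64 for Trim2, 1.07 for Trim3, 0.79 for Trim41 and 0.77 for Trim24, the 6 that fell in WT. Trim13, at 1.48, is the member called in Ifnar2-/- mice, where it rose in 3 of 3 arrays above all PBS arrays.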

How the results depend on the processing

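Of the 21 WT calls, 12 held under every alternative run, as did 6 of the 14 differences and 0 of 1 Ifnar2-/- calls. The WT count stayed between 14 and 23. The 14 came with slide as a fixed block, where 4471 of all genes were called, against 7273 as analysed. In Ifnar2-/- mice the count was 0 with no filter on dim probes, the mean of a gene's probes, the replicate block, the groups of the comparison alone, or slide 3 left out, and 0 to 1 with single arrays left out. After PBS it was 1 with the replicate block (Trim6) and with the groups of the comparison alone (Trim2), and 0 to 2 with single arrays left out. The count of differences was 9 without slide 3, which leaves 1 array in each Ifnar2-/- group, and 12 to 16 with single arrays left out. Values that changed sign were the Trim24 difference with the mean of its probes (-0.079), Trim45 in WT with the mean of its probes (-0.35, adjusted p = 0.0488) and Ifnar2 in WT with quantile normalization (-0.36, adjusted p = 0.0443); the cause was not tested. TRIM genes with an ISRE core went from 6 to 2 with the longer motif. The replicate block gave 19 calls in WT, 0 in Ifnar2-/- mice, 1 after PBS and 14 differences, beside 7057, 139, 1081 and 3036 over all genes. Signals near background limit Trim9, Trim17 and Trim36, which were well above it on 6 to 8 arrays.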
